A study of Drosophila melanogaster with 11 samples.

Results

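Ageing of the antenna was followed in wild-type flies by setting RNA from 25-day-old antennae against RNA from 3-day-old antennae, gene by gene. The comparison took every library titled as wild type: 3 at 25 d and 3 at 3 d after eclosion, which makes 6 of the 11 libraries of the series. All were from Drosophila melanogaster of the w1118 strain, a laboratory strain with white eyes, kept on cornmeal-yeast-agar food that was renewed every few days. The tissue was the third antennal segment, from which polyadenylated RNA was sequenced. The other 5 libraries came from flies lacking the microRNA gene mir-284 in the same strain background, 2 at 25 d and 3 at 3 d. They entered the statistical model to estimate the spread, and their values are given only where a wild-type result is set against them. The study asked how the antennal transcriptome depends on mir-284 as flies age. The design text calls the replicates biological. The labels do not say how many flies went into a library, and give neither sex nor the time of day of dissection.

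The third antennal segment is the main nose of the fly. Its hair-like sensilla house olfactory neurons, whose cilia carry odorant receptors with their co-receptor Orco or ionotropic receptors, and support cells that secrete odorant binding proteins and odorant-degrading enzymes into the lymph around them. Olfactory neurons also run their own circadian clock, in which Clk and cyc activate per, tim, vri and Pdp1, the Per and Tim proteins repress Clk and cyc, and Vri represses Clk.

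Fragments assigned to genes numbered 34713579, 37077211 and 24619699 in the 25 d libraries and 44394382, 38357143 and 34933682 in the 3 d libraries, in the order of the replicate numbers. Levels are given as counts per 1000000 assigned fragments (CPM) after TMM scaling of the libraries. No library of either genotype (0 of 11) had a count for mir-284 itself, so it checks no label in these polyadenylated libraries. Markers of the tissue were abundant. The 8 support cell genes together held 47535, 48121 and 40673 CPM at 25 d and 48390, 45876 and 34601 CPM at 3 d. The 7 neuronal genes held 5232 to 5611 CPM at 25 d and 4179 to 6162 CPM at 3 d.

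Wild-type 3 d replicate 3 stood apart from the other 5 wild-type libraries. Along principal component 1 (43.4% of the variance) it scored 97.7, and the others lay between -32.6 and -13. It correlated with the other 3 d libraries at r = 0.945 to 0.950, and those correlated with each other at 0.989 (log2 CPM across genes, which are not independent replicates). Along principal component 2 (23.9% of the variance) 25 d replicate 3 lay apart, at -59.5, with the others between -6.67 and 39.7. It correlated with the other 25 d libraries at 0.963 to 0.971, and those with each other at 0.980. It stayed in the fits without 3 d replicate 3. The 40 odorant receptor genes of the antenna summed to 3666 to 4157 CPM in the 25 d libraries and to 4104, 4061 and 1181 CPM at 3 d. Markers of other tissues moved the other way: fat body and female genes summed to 2296, 1253 and 671 CPM at 25 d and to 551, 590 and 7239 CPM at 3 d, and germline and sperm genes to 12.8, 3.66 and 3.90 CPM at 25 d and to 2.05, 1.44 and 50.6 CPM at 3 d. The 3 d replicate 3 library was thus low in olfactory receptors and high in markers of fat body, females, muscle, photoreceptors and germline. Photoreceptor genes summed to 1408, 7220 and 4636 CPM at 25 d and to 3946, 3320 and 9566 CPM at 3 d, so that this class also differed between the 25 d libraries. Without 3 d replicate 3 in the wild-type fit, 13 of the 13 fat body and female genes were above 0 with a median log2 fold change of 3.54 (8 of 13 and 0.54 with it), and 2 passed on the higher side, against 3.62% of all genes. The germline and sperm genes likewise had a median of -1.53, or 2.46 over the 6 with a value without it. The part of these tissues in the age differences was not tested. Fold changes with and without replicate 3 are set side by side below, mainly for gene lists and for genes in which it lay apart from the other 3 d libraries.

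**Figure D1:**
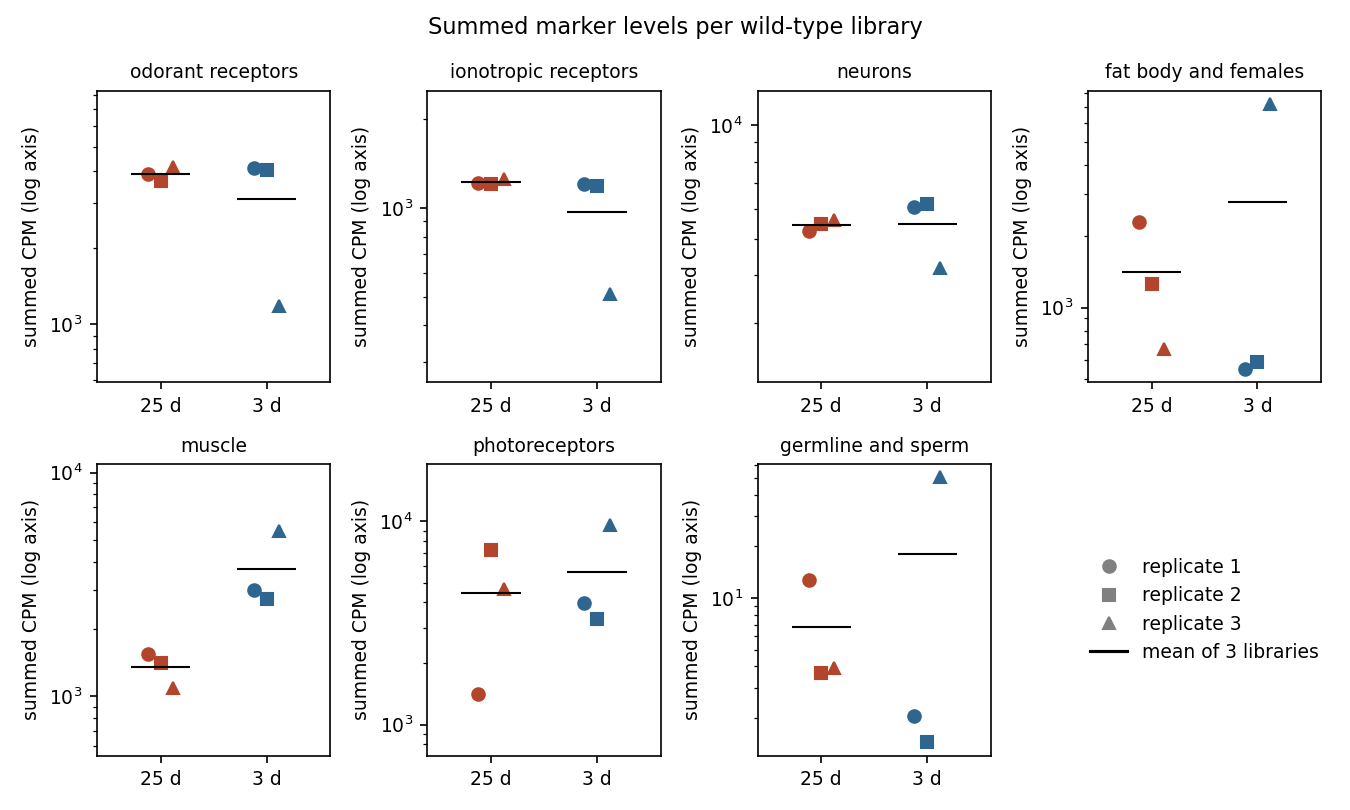
Summed CPM (log axis) of 7 sets of marker genes in each wild-type library, 25 d on the left and 3 d on the right of each panel, with a symbol per replicate number and a bar at the mean. The 3 d replicate 3 library (triangle) is the lowest in odorant receptors, at 1181 CPM, and the highest in fat body and female genes, at 7239 CPM.

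Between 25 d and 3 d, 18 of 11867 genes tested differed at an adjusted p under 0.05 (0.152% of the genes). Of these 7 rose (0.059%) and 11 fell (0.0927%), and with upper-quartile scaling 7 rose and 5 fell. The test was edgeR's quasi-likelihood test on the counts of all 11 libraries with Benjamini-Hochberg adjustment over all genes, and was used in the same form in each smaller fit. In the full fit 958 genes had an unadjusted p under 0.05. The count depended on which libraries shared the estimate of the spread. It was 121 of 10849 genes (1.12%; 41 or 0.378% higher and 80 or 0.737% lower) when only the 6 wild-type libraries were fitted, and 198 of 11205 (1.77%; 67 or 0.598% higher and 131 or 1.17% lower) in 9 libraries without the KO 25 d pair. All 18 genes were among the 198. When the wild-type libraries were fitted without 3 d replicate 3, 1034 of 11018 genes passed (9.38%; 399 or 3.62% higher and 635 or 5.76% lower). That fit takes the 3 d spread from 2 libraries, with a median SD of log2 CPM of 0.083, against 0.243 over all 3. The adjusted p values given below without that library share this limit. Without the same library the full fit gave 18 calls of 11579 genes, of which 12 were among the 18 above. Of the 198 genes, 195 were among the 1034, in a fit that reuses the same libraries. All 198 kept their direction. For all 198 the CPM of the ages did not overlap, so leaving out a library could hardly turn it. The median log2 fold change over all genes was -0.01, and 48.6% of genes were above 0. Here a gene is said to have risen or fallen only if it is one of the 18. In such whole-tissue RNA, fewer cells of a type and less RNA per cell cannot be told apart.

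**Figure D2:**
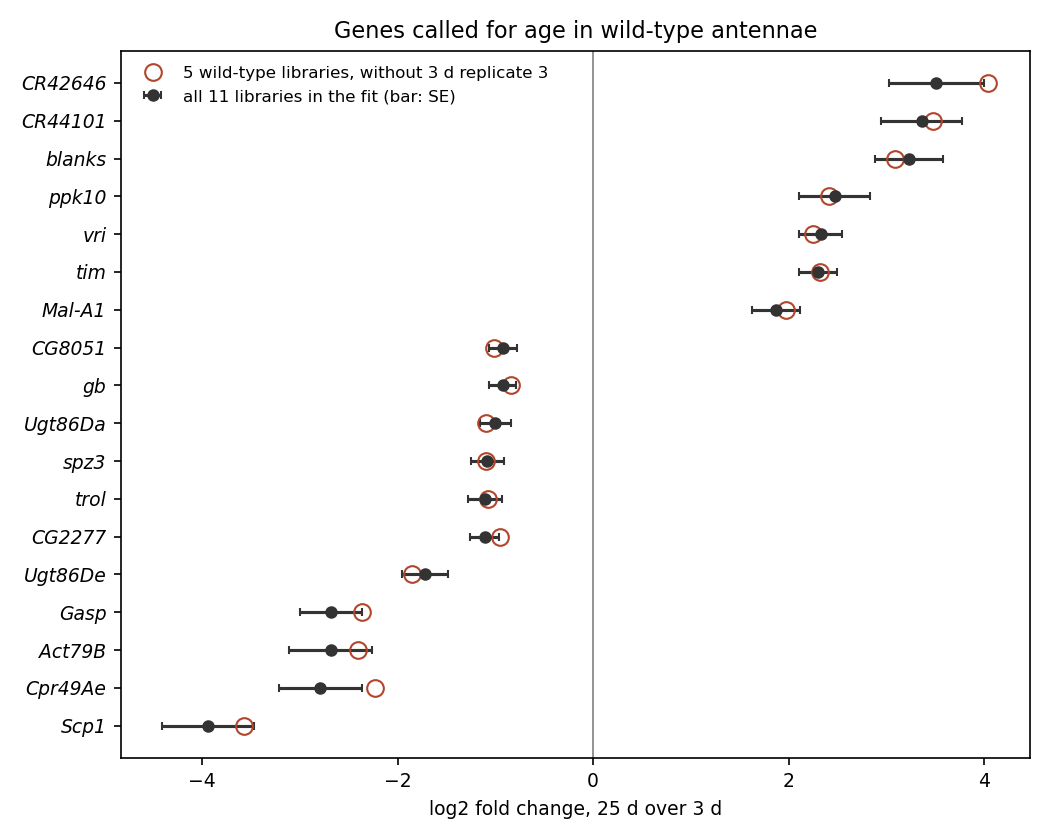
Log2 fold change, 25 d over 3 d, of the 18 genes that passed the test, from the fit of all 11 libraries (filled points, bars are standard errors) and from the 5 wild-type libraries left without 3 d replicate 3 (open circles). The 7 increases lie between 1.87 and 3.51 and the 11 decreases between -3.94 and -0.92, and each open circle lies on the same side of 0 as its filled point. That side was nearly fixed beforehand, since the ages did not overlap for any of the 18 genes.

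Most of the 18 calls depended on single libraries. Without 3 d replicate 2 or without 25 d replicate 3, tim and vri were the 2 genes that still passed, and without 25 d replicate 1 or 2 they were joined by blanks. Leaving out each of the 11 libraries in turn ended the calls of trol, spz3, gb and Cpr49Ae in 9 cases, those of ppk10, Act79B, Ugt86Da and CG8051 in 8, and those of CG2277, CR42646 and Ugt86De in 7. It ended the call of Mal-A1 in 6 cases, of CR44101 in 5, of Scp1 and Gasp in 4 and of blanks in 2. The direction of each of the 18 was the same in all of these fits. The ages did not overlap for any of the 18, so leaving out a library could hardly turn it.

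The lowest adjusted p values belonged to a pair of circadian clock genes. The transcript of tim (2L, 3493986 to 3508119, in dm6 as are all positions given), which encodes the light-sensitive partner of Per in the repressor complex, had 764, 1036 and 1209 CPM in the 25 d libraries and 194, 210 and 206 CPM in the 3 d libraries. Every 25 d library exceeded every 3 d library by more than 3-fold, and the 3 d values hardly varied. tim thus averaged 1003 ± 225 CPM at 25 d and 203 ± 8.57 CPM at 3 d (SD, n = 3 each), an increase of 2.30 on the log2 scale (SE 0.19, adjusted p = 0.00266). vri (2L, 5288944 to 5311223), the basic leucine zipper repressor of Clk, had 415, 644 and 770 CPM at 25 d and 125, 133 and 106 CPM at 3 d. It rose by 2.33 on the log2 scale (SE 0.22, adjusted p = 0.00403). Both kept their calls in 25 of 26 alternative analyses, including the removal of any one library, with log2 fold changes of 2.15 to 2.47 for tim and 2.12 to 2.54 for vri. Clock transcripts also change with the hour of the day. Since the labels give no hour of dissection, age and hour cannot be told apart in the values of tim, vri and the other clock and daily-rhythm genes, in either genotype.

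Other parts of the clock moved less. per, the partner of tim, had 66.0, 97.0 and 94.7 CPM at 25 d and 42.5, 44.9 and 30.4 CPM at 3 d, without overlap. Its log2 fold change of 1.13 (SE 0.22) missed the threshold with all libraries (adjusted p = 0.0999) and passed it in the 9-library fit (adjusted p = 0.0410). per also shares exons with CG2650 on the other strand, and the counting ignored strand, so its reads are uncertain. Clk, the activator, lay on the opposite side: 28.8, 17.1 and 26.8 CPM at 25 d and 52.2, 51.4 and 63.8 CPM at 3 d, log2 -1.20 (SE 0.25, adjusted p = 0.109, and 0.0260 with 9 libraries). For the blue-light receptor gene cry the means were 193 CPM at 25 d and 328 CPM at 3 d, and replicate 3 at 3 d, with 198 CPM, lay among the 25 d values (log2 -0.76, adjusted p = 0.328, and -1.02 with adjusted p = 0.00249 without that library). Pdp1, the activator of Clk that opposes Vri, averaged 1075 CPM at 25 d and 999.7 CPM at 3 d (log2 0.11, adjusted p = 0.988), and cwo, a further repressor, was at 155 to 162 CPM at 25 d and 155 to 161 CPM at 3 d. Over the whole clock list of 21 genes, 2 rose and 0 fell, 15 were above 0 and 6 below, and the median was 0.11, or 0.05 without 3 d replicate 3.

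**Figure D3:**
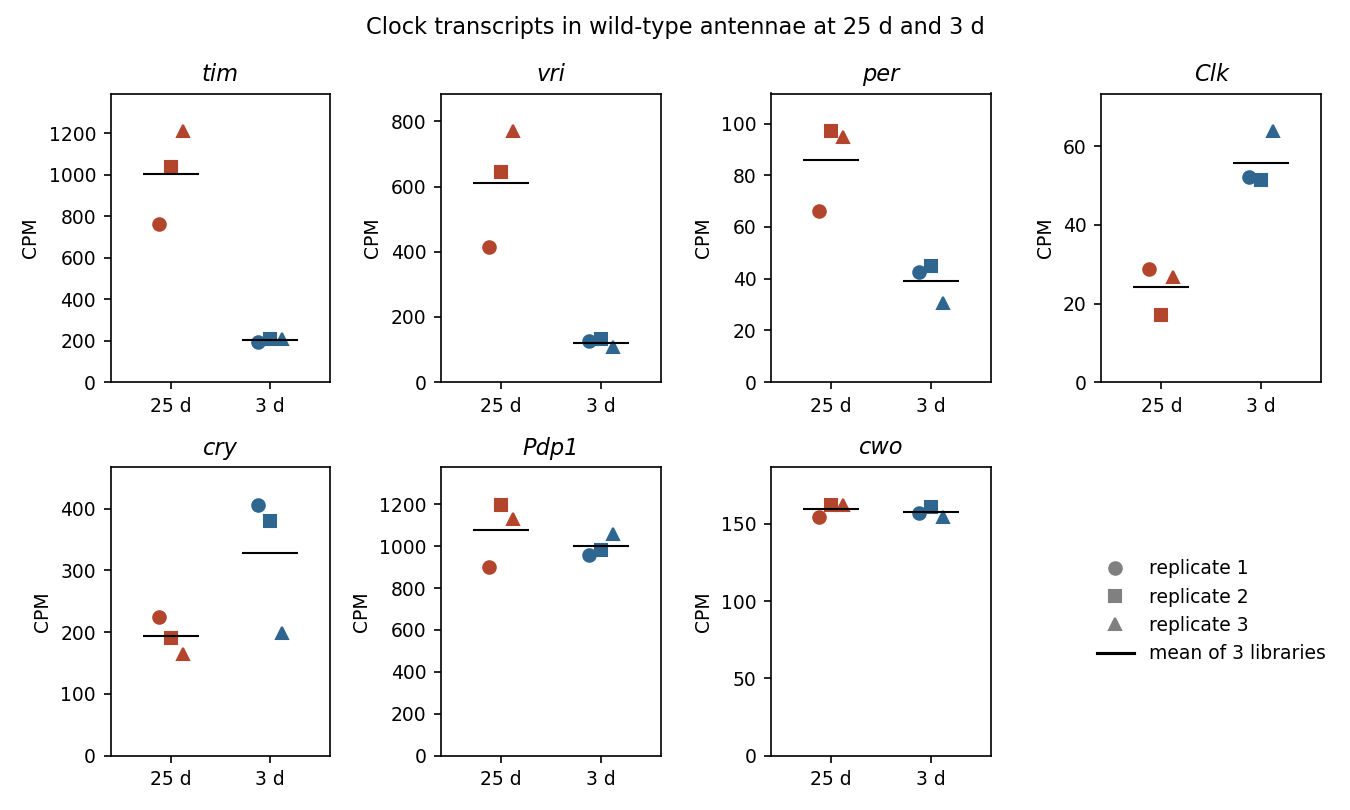
CPM of 7 clock genes in the wild-type libraries, 25 d on the left and 3 d on the right of each panel, with a symbol per replicate number and a bar at the mean. tim, vri and per are higher in each 25 d library than in any 3 d library, Clk is lower in each, and Pdp1 and cwo overlap between the ages.

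In mir-284 KO antennae the same pair of genes had lower values at the older age, but their KO age change did not pass the test. tim had 198 and 245 CPM in KO 25 d libraries and 429, 374 and 390 CPM in KO 3 d libraries, and vri had 185 and 175 CPM at KO 25 d and 345, 343 and 306 CPM at KO 3 d. The log2 change was -0.84 for tim (adjusted p = 0.244) and -0.88 for vri (adjusted p = 0.281), from 2 KO libraries at 25 d. The wild-type age change exceeded the KO age change by 3.15 on the log2 scale for tim (SE 0.29, adjusted p = 0.00648) and by 3.21 for vri (SE 0.33, adjusted p = 0.00903). With CG11893, whose change was 0.21 in wild type and 3.17 in KO, they were the 3 genes of 11867 (0.0253%) whose age change differed between the genotypes.

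Transcripts that are reported to cycle daily in fly heads were mostly lower at 25 d. Of 24 tested, 21 were below 0, 10 did not overlap between ages on the lower side and 0 on the higher side (13% and 13.1% of all genes did so), and the median was -0.62, or -0.34 without 3 d replicate 3. CG2277 was the member that fell, with 23.5, 23.0 and 23.0 CPM at 25 d and 44.7, 45.2 and 60.3 CPM at 3 d (log2 -1.11, SE 0.15, adjusted p = 0.0267). It shares exons with CG2469 on the other strand. The 25 d libraries were nearly identical for CG2277 and well below each 3 d library. In the 9-library fit CG10553 (adjusted p = 0.0479) and the cytochrome P450 gene Cyp6a21 (adjusted p = 0.0410) passed too. With CG2277 that made 3 members on the lower side and 0 on the higher, against 1.17% and 0.598% of all genes. CG10553 averaged 501 CPM at 25 d and 1007 CPM at 3 d. takeout (to), which codes for a feeding-related secreted protein under clock control, had 937, 917 and 774 CPM at 25 d and 1158, 1179 and 2675 CPM at 3 d and did not pass (log2 -0.93, adjusted p = 0.352, and -0.41 with adjusted p = 0.0319 without 3 d replicate 3).

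Among the other protein-coding genes that rose, blanks had the highest fold. blanks (3L, 5497523 to 5498958) codes for a double-stranded RNA binding protein known from the testis. It had 24.0, 24.3 and 31.7 CPM at 25 d and 4.27, 1.98 and 2.23 CPM at 3 d, an increase of 3.23 on the log2 scale (SE 0.35, adjusted p = 0.0103). In mir-284 KO antennae its age change was 2.82 on the log2 scale and passed (adjusted p = 0.0336). Among the other 23 genes of the small RNA and double-stranded RNA pathway list none passed. 15 of the 24 members, blanks included, were above 0, the median was 0.10, and armi, a helicase of the piRNA pathway, averaged 20.7 CPM at 25 d and 12.4 CPM at 3 d (log2 0.73, adjusted p = 0.664, and 0.0326 with 9 libraries).

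ppk10 and Mal-A1 rose as single members of their families. ppk10 (2L, 10450134 to 10452396), a subunit gene of the pickpocket family of sodium channels, had 25.3, 31.1 and 32.4 CPM at 25 d and 5.91, 5.21 and 4.86 CPM at 3 d (log2 2.47, SE 0.37, adjusted p = 0.0442). The lowest 25 d library stood at more than 4 times the highest 3 d library. Of the 21 pickpocket genes tested, 1 rose and 0 fell, 11 were above 0, and the median was 0.10. Mal-A1 (2R, 8449664 to 8451904), a maltase that splits sugars, had 13.6, 16.1 and 18.7 CPM at 25 d and 4.67, 3.58 and 4.97 CPM at 3 d (log2 1.87, SE 0.25, adjusted p = 0.0241). The age change of Mal-A1 in mir-284 KO antennae was 2.55 on the log2 scale and passed (adjusted p = 0.0107). Mal-A1 shares exons with Cyp4e1 on the other strand. Its neighbours in the maltase cluster did not pass. Mal-A5 averaged 10.5 CPM at 25 d and 18.5 CPM at 3 d, with overlapping values (log2 -0.81, and 0.04 without 3 d replicate 3), and Mal-A2 and Mal-A6 stayed under 1 CPM.

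The other 2 increases were long non-coding RNAs of unknown role. CR44101 (2R, 4621118 to 4622511) had 7.58, 9.68 and 7.65 CPM at 25 d and 0.542, 0.954 and 0.923 CPM at 3 d (log2 3.36, SE 0.42, adjusted p = 0.0164). CR42646 (2R, 5363253 to 5367357) had 8.01, 11.1 and 10.7 CPM at 25 d and 0.632, 0.567 and 1.41 CPM at 3 d (log2 3.51, SE 0.48, adjusted p = 0.0267, and 4.05 without 3 d replicate 3). For both, each 25 d library was more than 5 times above each 3 d library. They were the 2 of 653 long non-coding RNAs tested that passed, and the median of that class was -0.04. In mir-284 KO antennae the age change on the log2 scale was 0.87 for CR44101 (adjusted p = 0.441) and 3.05 for CR42646 (adjusted p = 0.108), and neither difference from wild type passed (adjusted p = 0.681 and 0.891).

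Outside the 18 genes, the steepest increases that passed in the 9-library fit were of modest level. The mucin gene Muc14A averaged 9.09 CPM at 25 d and 0.718 CPM at 3 d (log2 3.66, adjusted p = 0.0677, and 0.0258 with 9 libraries; 4.14 without 3 d replicate 3). Arpc3B, a subunit gene of the Arp2/3 actin-nucleating complex, averaged 6.98 CPM at 25 d and 1.18 CPM at 3 d (2.56), the odorant binding protein gene Obp56a 10.9 CPM and 2.46 CPM (2.16), and the cuticle protein gene TwdlG 15.7 CPM and 5.13 CPM (1.61). The further members of this set were CG34456, CG34423, CR45174, CG18869, CG5290 and CG5348, at log2 1.44 to 2.31. With all 11 libraries their adjusted p values lay between 0.0613 and 0.308.

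Muscle transcripts had lower values at 25 d across the list, and 2 of them fell. Scp1 (2R, 2932595 to 2968052), which codes for a calcium-binding protein of the sarcoplasm, had the deepest fall of the 18 genes, with 17.1, 13.5 and 12.1 CPM at 25 d and 141, 200 and 314 CPM at 3 d (log2 -3.94, SE 0.47, adjusted p = 0.0149). Act79B (3L, 21985210 to 21987190), an actin of tubular muscle, fell too, with 13.3, 16.3 and 14 CPM at 25 d and 78.6, 76.7 and 126 CPM at 3 d (log2 -2.68, SE 0.42, adjusted p = 0.0487). For both, 3 d replicate 3 was the highest library, and the gap to the 25 d values held in the other 3 d libraries: without replicate 3 the log2 fold changes were -3.58 and -2.41.

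Across the 27 muscle genes tested, 27 were below 0, 22 did not overlap on the lower side (13% of all genes did so), and the median was -1.56. Without 3 d replicate 3 the median was -1.14, with 24 of 26 below 0 and 15 passing the test on the lower side, where 5.76% of all genes passed. Mhc, the myosin heavy chain gene, had 127, 154 and 93.3 CPM at 25 d and 346, 326 and 676 CPM at 3 d (log2 -1.85, adjusted p = 0.149, and -1.43 without 3 d replicate 3), and the tropomyosin gene Tm2 had 21.2, 28.7 and 21.8 CPM at 25 d and 90.9, 76.6 and 145 CPM at 3 d (log2 -2.13, adjusted p = 0.113, and -1.80 without it). Summed over the list, muscle transcripts held 1550, 1411 and 1087 CPM in the 25 d libraries and 2973, 2735 and 5459 CPM in the 3 d libraries. Act57B was among the 5 members whose ages overlapped, with 128, 97.2 and 71.2 CPM at 25 d and 64.6, 56.9 and 193 CPM at 3 d (log2 -0.08, and 0.71 without 3 d replicate 3). Whether the amount of attached muscle differed between dissections at the 2 ages was not tested.

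Genes of cuticle and chitin were lower at 25 d among those that passed. Gasp (3R, 6088799 to 6100887), a chitin-binding protein gene, had 7.10, 7.17 and 8.53 CPM at 25 d and 39.7, 38.6 and 68.0 CPM at 3 d (log2 -2.68, SE 0.32, adjusted p = 0.0149). Cpr49Ae (2R, 12402216 to 12405108), a structural cuticle protein gene, had 4.19, 10.3 and 6.76 CPM at 25 d and 33.4, 33.4 and 80.5 CPM at 3 d (log2 -2.79, SE 0.42, adjusted p = 0.0487, and -2.23 without 3 d replicate 3), and was the one of the 18 that did not pass with the wild-type libraries alone (adjusted p = 0.0668). In both genes the 3 d libraries were several times above the 25 d libraries even when the high replicate 3 was set aside. Of 45 cuticle and chitin-binding genes tested, 0 rose and 2 fell. 15 were above 0 and 30 below, the median was -0.57 (-0.31 without 3 d replicate 3), and in the 9-library fit 6 passed on the lower side and 1, TwdlG, on the higher, against 1.17% and 0.598% of all genes. Cpr47Ef averaged 4.55 CPM at 25 d and 35.9 CPM at 3 d (log2 -2.98, adjusted p = 0.0613, and -2.25 without 3 d replicate 3), and verm, a chitin deacetylase gene, 5.53 CPM and 27.3 CPM (log2 -2.30, adjusted p = 0.109, and 0.00933 with 9 libraries).

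The extracellular matrix gene trol (X, 2470460 to 2545410), which encodes the basement membrane proteoglycan perlecan, fell to 192 ± 2.9 CPM at 25 d, against 414 ± 13.7 CPM at 3 d (log2 -1.11, SE 0.17, adjusted p = 0.0487). Its libraries varied little within an age: 195, 189 and 193 CPM at 25 d and 412, 401 and 429 CPM at 3 d. In the matrix list 21 of 24 genes were below 0 and the median was -0.46, or -0.34 without 3 d replicate 3. The type IV collagen genes Cg25C and vkg averaged 75.5 and 59.8 CPM at 25 d, against 205 and 149 CPM at 3 d, but varied between libraries (Cg25C from 40.3 to 123 CPM at 25 d and from 141 to 305 CPM at 3 d) and did not pass (log2 -1.44 and -1.31, adjusted p = 0.286 and 0.261, and -1.03 and -0.91 without 3 d replicate 3).

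UDP-glycosyltransferases, which attach sugars to odorants, toxins and hormones, were lower at 25 d for neighbouring genes on arm 3R. Ugt86De (3R, 11166177 to 11167981) had 10.5, 7.40 and 9.34 CPM at 25 d and 32.3, 33.4 and 24.2 CPM at 3 d (log2 -1.72, SE 0.24, adjusted p = 0.0267). Ugt86Da (3R, 11157098 to 11159744) had 174, 150 and 165 CPM at 25 d and 361, 337 and 280 CPM at 3 d (log2 -1.0, SE 0.16, adjusted p = 0.0487). The ages were well separated for both genes, and 3 d replicate 3 was the lowest of its age. Their neighbours Ugt35a, Ugt35b and Ugt86Dg had log2 values of -1.05, -0.98 and -2.20 with adjusted p = 0.113, 0.154 and 0.671, without overlap between the ages. Ugt35b was by far the most abundant per length, at 903 RPKM (CPM per kilobase of gene model) at 25 d and 1781 RPKM at 3 d. Ugt86Dd had 203, 200.3 and 210 CPM at 25 d and 305, 337 and 205 CPM at 3 d, so that 3 d replicate 3 alone lay within the 25 d range. Its log2 fold change was -0.47 (adjusted p = 0.663), and -0.65 without that library (adjusted p = 0.00226). Ugt86Dc, Ugt86Dh and Ugt86Dj averaged under 1 CPM at both ages. Over 27 family members tested, 0 rose and 2 fell, and 22 were below 0 with a median of -0.34, or -0.21 without 3 d replicate 3. Between the ages 9 did not overlap on the lower side and 4 on the higher (13% and 13.1% of all genes did so). In the 9-library fit 5 passed on the lower side and 1, CG18869 (log2 1.66), on the higher, against 1.17% and 0.598% of all genes. The 5 included CG17323, which lies on arm 2L. It averaged 15.6 CPM at 25 d and 26.8 CPM at 3 d, without overlap. Its log2 fold change was -0.78 (adjusted p = 0.0738, and 0.0215 with 9 libraries).

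In KO antennae the age change of Ugt86De was 0.66 on the log2 scale, and it differed from that in wild type by -2.38 (SE 0.34), which missed the threshold (adjusted p = 0.0773). Cytochrome P450 genes, oxidising enzymes of detoxification and hormone turnover, had a median of -0.15 over 82 genes, with 54 below 0 and none called, and a median of -0.03 without 3 d replicate 3. Between the ages 18 did not overlap on the lower side and 3 on the higher (13% and 13.1% of all genes did so). In the 9-library fit Cyp313a4 (19.0 CPM at 25 d and 39.1 CPM at 3 d) and Cyp6a21 (82.9 CPM at 25 d and 144 CPM at 3 d) passed on the lower side. On the higher side 0 passed there, against 1.17% of all genes on the lower side and 0.598% on the higher. Glutathione S-transferases had 20 of 37 above 0 and a median of 0.07, or -0.01 without 3 d replicate 3. Between the ages 8 of them did not overlap on the lower side and 3 on the higher. GstE3, GstE9 and GstE13 of that family passed on the lower side in the 9-library fit, at log2 -0.75 to -0.94, and 0 members on the higher.

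The 4 other genes that fell were of separate kinds. gb (3R, 27108467 to 27112270), a glial cystine and glutamate transporter gene, had 13.3, 13.5 and 16 CPM at 25 d and 24.8, 26.1 and 30.3 CPM at 3 d (log2 -0.93, SE 0.14), with an overlapping non-coding gene, CR45209, on the other strand. spz3 (2L, 7873495 to 7879552), a member of the Spätzle family of Toll ligands, had 12.9, 14 and 14.6 CPM at 25 d and 31.4, 28 and 28.4 CPM at 3 d (log2 -1.08, SE 0.17). CG8051 (X, 19301330 to 19307925) had 10.8, 11.8 and 11.3 CPM at 25 d and 23.2, 22.6 and 18.5 CPM at 3 d (log2 -0.92, SE 0.14). Each had an adjusted p of 0.0487, and in each the ages were apart by about the same 2-fold step. CG2277, of the daily rhythm list, was the other of the 4. nrv2, a glial subunit gene of the sodium pump, showed the same pattern without passing, with 393, 458 and 414 CPM at 25 d and 749, 775 and 862 CPM at 3 d (log2 -0.92, adjusted p = 0.0613, and 0.0199 with 9 libraries). The glial marker list as a whole had 3 of 10 genes above 0 and a median of -0.16.

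Nuclear genes of oxidative phosphorylation, the respiratory chain and ATP synthase of mitochondria, were lower at 25 d by small and regular amounts. No member passed with all 11 libraries. Of 70 tested, 65 were below 0, with a median of -0.35, and 50 did not overlap between ages on the lower side and 1 on the higher, where 13% and 13.1% of all genes did so. The list summed to 17981, 17349 and 16141 CPM at 25 d and to 24961, 22919 and 22966 CPM at 3 d. Here 3 d replicate 3 did not stand apart: without it 65 of 70 were again below 0, the median was -0.40, and 37 passed on the lower side against 5.76% of all genes.

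The median lay below 0 for each complex, while the number of members without overlap varied. The medians were -0.29 for complex I (31 of 32 genes below 0), -0.29 for complex II (4 of 4), -0.40 for complex III (7 of 7), -0.46 for complex IV (9 of 10) and -0.56 for ATP synthase (12 of 13). In the same order 20 of 32, 1 of 4, 7 of 7, 8 of 10 and 12 of 13 genes did not overlap on the lower side. The 4 genes of cytochrome c and the ADP/ATP carriers were split, with 2 above and 2 below 0 and a median of -0.19, or -0.08 without 3 d replicate 3. ATPsyn-gamma, a subunit of the central stalk of ATP synthase, had 269, 255 and 255 CPM at 25 d and 487, 443 and 462 CPM at 3 d (log2 -0.84, SE 0.16, adjusted p = 0.0869). sesB, the main ADP/ATP carrier gene of the inner membrane, had 1345, 1394 and 1376 CPM at 25 d and 2485, 2299 and 2673 CPM at 3 d (log2 -0.86, SE 0.21, adjusted p = 0.156). For both genes the 3 d libraries lay close to each other and well above all 25 d libraries. Both passed in the 9-library fit (adjusted p = 0.0151 and 0.0311), together with sun, blw, CG4692, CG5548, l(1)G0230 and Oscp, with 0 members higher there (1.17% of all genes passed on the lower side and 0.598% on the higher). CG5548 belongs to complex I, and the other named genes besides sesB encode ATP synthase subunits, so no member of complexes II, III or IV was among those 8. Gapdh1, an enzyme gene of glycolysis, averaged 370 CPM at 25 d and 658 CPM at 3 d (log2 -0.83, adjusted p = 0.12, and 0.0260 with 9 libraries).

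**Figure D4:**
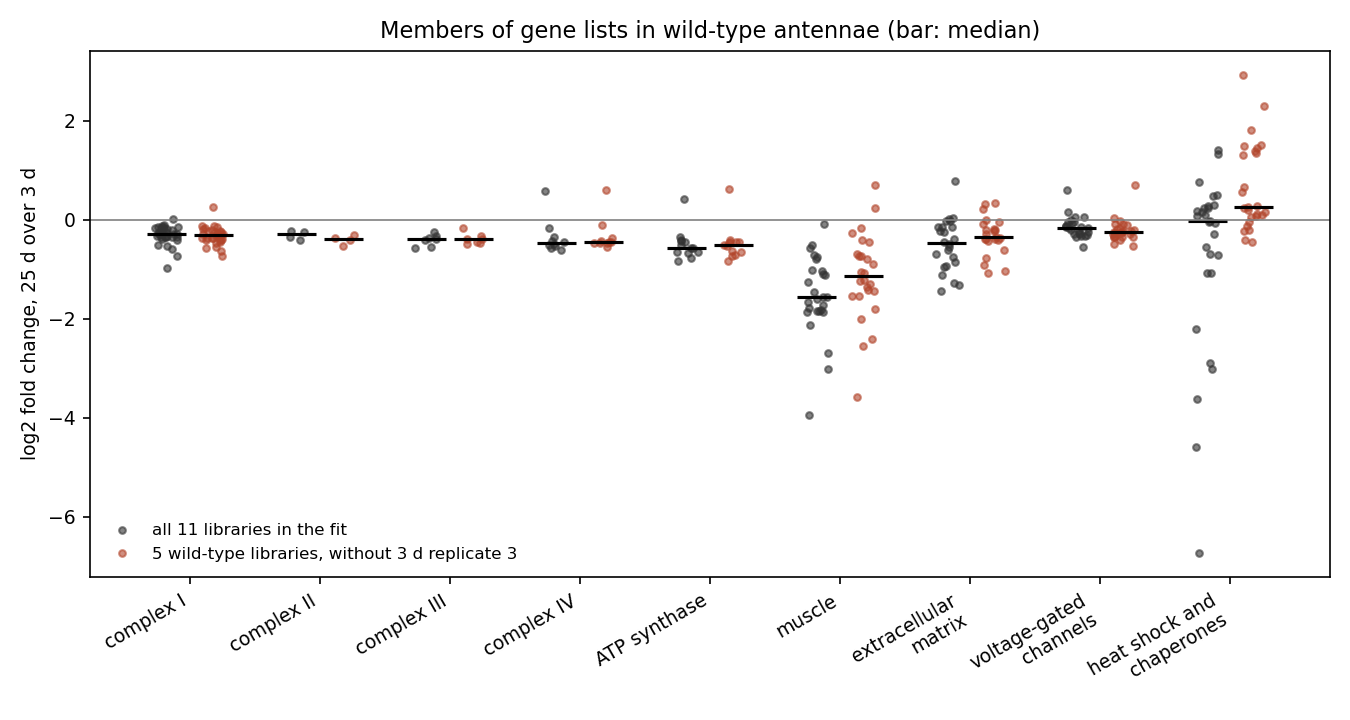
Log2 fold change, 25 d over 3 d, of the single members of 9 gene groups, from the fit of all 11 libraries (dark) and from the 5 wild-type libraries left without 3 d replicate 3 (red), with bars at the medians. The mitochondrial complexes shift little when the library is left out, the muscle median moves from -1.56 to -1.14, and the chaperone genes far below 0 are no longer there.

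Heat shock proteins and chaperones gave an answer that depended on 3 d replicate 3. Hsp83, the cytosolic Hsp90, had 924, 1212 and 887 CPM at 25 d and 137, 127 and 874 CPM at 3 d, so that replicate 3 alone reached the 25 d range. With all 11 libraries its log2 fold change was 1.41 (SE 0.81, adjusted p = 0.740), and without that library it was 2.94 (adjusted p = 0.000172). DnaJ-1, an Hsp40 co-chaperone, had 190, 196 and 218 CPM at 25 d and 81.0, 81.6 and 337 CPM at 3 d, with log2 0.27 (adjusted p = 0.981) and 1.31 without it (adjusted p = 0.000351). The heat-inducible genes Hsp68 and Hsp26 reached 289 and 231 CPM in that library, against 3.90 to 5.75 CPM and 3.97 to 4.28 CPM in the other 3 d libraries. At 25 d Hsp68 lay between 11.3 and 13.1 CPM and Hsp26 between 6.80 and 15.9 CPM. Their log2 fold changes were -3.01 and -2.89 with all 11 libraries, and 1.35 and 1.39 without 3 d replicate 3.

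The co-chaperone genes Hop and Hsc70Cb, less touched by that library, were higher at 25 d in each library. Hop, which links Hsp70 to Hsp90, had 106, 113 and 125 CPM at 25 d and 42.3, 38.6 and 55.3 CPM at 3 d (log2 1.34, SE 0.22, adjusted p = 0.0570). Hsc70Cb, the Hsp110 exchange factor, had 308, 314 and 307 CPM at 25 d and 205, 185 and 155 CPM at 3 d (log2 0.77, SE 0.13, adjusted p = 0.0680). The ages did not overlap for either gene, and in the 9-library fit both passed (adjusted p = 0.0260 and 0.0233). Over 28 chaperone genes tested, 13 were above 0 and 15 below, with a median of -0.02. Without 3 d replicate 3, 20 of 26 were above 0, the median was 0.25, and 7 passed on the higher side, against 3.62% of all genes, and 0 on the lower. With that library, the ages did not overlap for 7 members on the higher side and 2 on the lower (13.1% and 13% of all genes). Hsc70-2 was among the 2, with means of 29.1 CPM at 25 d and 47.5 CPM at 3 d. Its log2 fold change was -0.71, and -0.41 without 3 d replicate 3.

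Olfactory receptor genes also depended on 3 d replicate 3. Orco had 2285, 2163 and 2424 CPM at 25 d and 2585, 2518 and 700 CPM at 3 d. Its log2 fold change was 0.24 (SE 0.44, adjusted p = 0.976) and -0.15 without replicate 3 (adjusted p = 0.287), so the sign rested on that library. Of the 39 odorant receptor genes tested 37 were above 0, with a median of 0.40, and without replicate 3 there were 21 above and 18 below, with a median of 0.05. The 17 antennal ionotropic receptor genes had a median of 0.32, and 0.04 without it, and the 39 genes of cilium and intraflagellar transport had 0.23, and 0.01 without it. None of the members of these 3 lists passed with all libraries.

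Among 32 odorant binding protein genes the values were mixed, with 14 above 0 and a median of -0.12, or 0.02 without 3 d replicate 3. Obp99b, which is also known as a male-biased fat body transcript, had 167, 256 and 162 CPM at 25 d and 13.1, 15 and 35.3 CPM at 3 d. Its log2 fold change was 3.21 (SE 0.88, adjusted p = 0.240), and 3.80 without 3 d replicate 3. It passed in wild-type libraries alone (adjusted p = 0.0415) but not with 9 libraries (adjusted p = 0.180). Every 25 d library was more than 4 times above every 3 d library. Its near neighbour Obp99d had the reverse pattern at low level, with 1.04, 0.407 and 1.32 CPM at 25 d and 10.3, 10.4 and 3.04 CPM at 3 d (log2 -3.10, adjusted p = 0.126, and -3.50 without 3 d replicate 3). The other male markers, among them the dosage compensation RNA genes roX1 and roX2, overlapped between the ages (roX1 at 1973 to 3183 CPM at 25 d and 2439 to 3788 CPM at 3 d).

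Of 27 genes of olfactory signalling and odorant clearance, 8 were above 0 and 19 below, the median was -0.11, or -0.20 without 3 d replicate 3, and none passed with all libraries. Est-6, a secreted esterase of the antenna, had 1255, 1319 and 1009 CPM at 25 d and 2151, 2196 and 2156 CPM at 3 d. Its log2 fold change was -0.86 (SE 0.37, adjusted p = 0.581). It passed in wild-type libraries alone (adjusted p = 0.0473) but not with 9 libraries (adjusted p = 0.277). The 3 d libraries were almost level with each other and above each 25 d library. Jhedup, a further esterase of the list, averaged 7082 CPM at 25 d and 5763 CPM at 3 d with overlap (log2 0.30, adjusted p = 0.959, and -0.08 without 3 d replicate 3). Snmp1, the membrane protein that aids pheromone detection, was at 1518 CPM at 25 d and 1323 CPM at 3 d (log2 0.20, and -0.08 without it). Voltage-gated channel genes had 20 of 25 below 0 and a median of -0.16, and without 3 d replicate 3 they had 23 of 25 below 0, a median of -0.25 and 7 that passed on the lower side, against 5.76% of all genes. Ih, the channel of the hyperpolarization-activated current, had 536, 598 and 607 CPM at 25 d and 840, 848 and 858 CPM at 3 d (log2 -0.55, SE 0.21, adjusted p = 0.476, and 0.00714 without that library). para, the neuronal sodium channel, had 1101, 1196 and 1234 CPM at 25 d and 1630, 1684 and 1198 CPM at 3 d (log2 -0.35, adjusted p = 0.890, and -0.49 with 0.00965 without that library). Synaptic release genes were centred near 0, with a median of -0.01 over 33 genes, or -0.10 without it.

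Other groups described by their medians moved little or with 3 d replicate 3. Immune genes had 47 of 57 members below 0 and a median of -0.53, against 23 of 53 below 0 and a median of 0.15 without that library. Cytosolic ribosomal protein genes had 74 of 82 below 0 and a median of -0.11, against 5 of 82 and 0.14 without it. Their share of all counts was 6.30%, 5.63% and 5.20% at 25 d and 4.93%, 4.68% and 7.90% at 3 d. Ionotropic glutamate receptor genes had a median of -0.39 over 13 genes, and 0.07 without it, and hemocyte markers one of -0.57 over 13, and 0.13 without it. Proteasome genes had a median of 0.05 over 34 genes (-0.05 without it) and insulin and nutrient signalling genes one of 0.09 over 33 (0.07), with no member called. Neuropeptide and receptor genes had a median of -0.14 over 50 genes (-0.01 without it), oxidative defence genes one of -0.03 over 24 (-0.10), and cuticle tanning and dopamine synthesis genes one of -0.32 over 17 (-0.07).

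**Figure D5:**
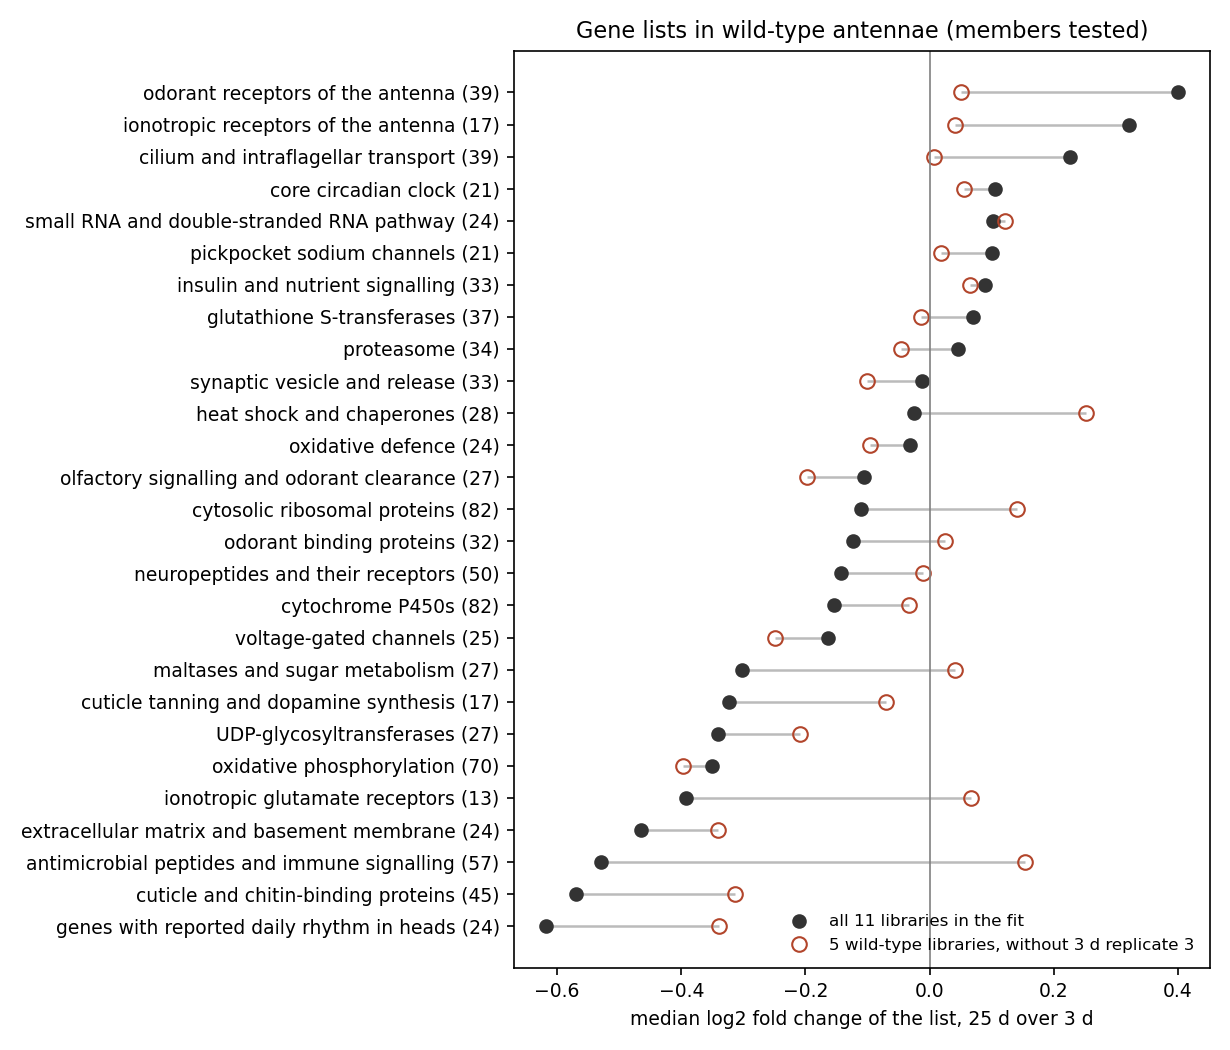
Median log2 fold change, 25 d over 3 d, of each gene list (members tested in brackets), from the fit of all 11 libraries (filled) and from the 5 wild-type libraries left without 3 d replicate 3 (open). Oxidative phosphorylation stays near -0.35 in both, and immune genes, olfactory receptors, cilium and ribosomal proteins move across or close to 0.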

How the data were processed

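The data are raw fragment counts per gene, deposited by the authors as 1 table of 16727 genes. Per the file headers they were made with featureCounts 1.4.5-p1 on dm6 gene models, counting read pairs as fragments and ignoring strand, so reads of overlapping genes on opposite strands cannot be told apart. This touches 4161 genes and 3 of the 18 called. The submitters' processing notes list STAR 2.4.2a, FastQC and the dm6 build, and the labels' protocols name poly(A) selection and a strand-marking library kit. Genotype, age and replicate number in a column's name tied it to a sample, and 1 column, named as a further KO 25 d library, was not used here. FlyBase IDs were found for 16507 symbols.

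Tests ran in R 4.3.3 with edgeR 4.0.16: filterByExpr by group (11867 genes left), TMM scaling, and the robust quasi-likelihood test in a model of 4 group means over 11 libraries (common biological coefficient of variation 0.431). Log2 fold changes are 25 d over 3 d, so positive ones are higher at 25 d. Principal components used log2 CPM with a prior count of 2. RPKM values were computed from the counts with the length column of the table. The script was tested on simulated counts. The p-values measure the spread between these libraries. Replicate numbers are not said to pair libraries across ages. Deviations from the age means of libraries with the same number correlated at -0.07, -0.0001 and -0.03. With 3 libraries per age, whose deviations sum to 0, these values cannot decide whether they pair.

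Alternatives were other scalings, DESeq2 1.42.0, limma 3.58.1 voom, other filters, a replicate block, fewer groups in the fit, genes without antisense overlap, and leaving out each library. The fits of 8 libraries (no KO 25 d group, no wild-type 3 d replicate 3) and of 7 (also without KO 3 d replicate 3) were chosen after seeing the data. From the wild-type fit, 3 d replicate 3, which stood apart, was the only library left out. That fit was thus not chosen blind to the data. Named genes were those called, the 10 largest increases and 10 largest decreases that passed in the 9-library fit with no overlap between ages and 5 CPM or more on average in the higher age, up to 4 members per list by p, and per, tim, Clk, vri, Pdp1, cwo, cry and Orco. Other genes shown, such as Hsp83, were chosen after their values were seen. The members and the gene lists were chosen with earlier results of these data known. No sequences are shown.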

Additional observations from a re-analysis of the deposited data

Results flagged for a closer look

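Among the genes named by the rule above, the age change of 2 differed between wild-type and mir-284 KO antennae by a test of the difference. The test used the same edgeR quasi-likelihood fit of all 11 libraries with Benjamini-Hochberg adjustment. CG11893, outside that rule, differed too, by -2.96 on the log2 scale (adjusted p = 0.0257). For tim, the wild-type change minus the KO change was 3.15 on the log2 scale (SE 0.29, adjusted p = 0.00648), from 2.30 in wild type and -0.84 in KO (adjusted p of the KO change 0.244). For vri, it was 3.21 (SE 0.33, adjusted p = 0.00903), from 2.33 in wild type and -0.88 in KO (adjusted p 0.281). The KO changes of tim and vri rest on 2 libraries at 25 d and 3 at 3 d, and did not pass by themselves. The labels give no hour of dissection, and the hour cannot be told apart from age and genotype here.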

How the results depend on the processing

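Of the 18 calls, 17 were shared with the wild-type-only fit and 18 with the 9-library fit. The counts of genes higher and lower at 25 d (7 and 11) were 7 and 5 with upper-quartile scaling, 8 and 6 without a filter on low counts, 6 and 4 without genes overlapping the other strand, 81 and 214 with DESeq2, and 954 and 1036 with limma voom and library quality weights. They were 41 and 80 in the wild-type libraries alone, 67 and 131 in the 9 libraries, 399 and 635 in the wild-type libraries without 3 d replicate 3, 78 and 162 in 8 libraries without the KO 25 d group and that library, and 432 and 687 in 7 libraries that also lacked KO 3 d replicate 3. Leaving out 1 library from the full fit gave 2 to 69 higher and 0 to 115 lower. The lowest totals, 2 to 5, came without 3 d replicate 1 or 2 or any single 25 d library, KO 3 d replicates 1 and 2 gave 8 and 6, and the highest, 181 and 184, came without KO 25 d replicate 1 or 2. The cause was not tested. The replicate numbers are not said to pair the samples, and a replicate block gave 5 higher and 7 lower, or 0 higher and 2 lower in the wild-type libraries alone. RLE scaling, limma voom and a stricter filter stayed within 1.5 times of both counts. Orco, at 0.51 without 3 d replicate 1 at the most, turned to -0.12 with quality weights, to -0.15 in wild-type libraries without 3 d replicate 3, in the full fit without it, in the 8 libraries and, at -0.15, in the 7. The other genes named by the rule above kept their direction under every alternative that gave a value. All of them except Pdp1, cwo and cry had no overlap between the ages, so leaving out a library could hardly turn them. Genes shown outside that rule, such as Hsp68 and Hsp26, did turn without 3 d replicate 3. A count of 0 allows up to 0.0541 to 0.122 CPM (3 counts per library, counting error only).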

Other observations

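The steepest decreases outside the 18 called genes that passed in the 9-library fit included genes of several kinds. CG9297 averaged 46.5 CPM at 25 d and 252 CPM at 3 d (log2 -2.44, edgeR adjusted p = 0.0701), and the aquaporin gene AQP averaged 3.51 CPM at 25 d and 13 CPM at 3 d (log2 -1.89, adjusted p = 0.252). tnc averaged 6.16 CPM at 25 d and 23.0 CPM at 3 d (log2 -1.90, adjusted p = 0.321). CG30101, CG17974, CG14342 and CG18304 lay at log2 -1.78 to -2.82. In all of these genes 3 d replicate 3 was the highest library, and all passed without it (adjusted p of 0.000515 to 0.0238).

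Among single genes seen after the fact, the insulin antagonist gene ImpL2 had 167, 166 and 171 CPM at 25 d and 83.7, 79.8 and 241 CPM at 3 d (log2 0.32, and 1.04 without 3 d replicate 3), and Obp44a had 60.9, 60.6 and 62.8 CPM at 25 d and 14.9, 17.3 and 45.0 CPM at 3 d (1.26, and 1.94 without it). The fat body storage protein gene Lsp2 had 73.5, 148 and 113 CPM at 25 d and 1.83, 0.309 and 78.9 CPM at 3 d (2.05, and 6.67 without it). The yolk protein gene Yp3 had 627, 8.41 and 5.22 CPM at 25 d and 27.7, 4.61 and 2234 CPM at 3 d (-1.82, and 3.72 without it), so 25 d replicate 1 and 3 d replicate 3 carried it.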
